A study of Mus musculus with 15 samples.

Results

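The 52 genes described here form the cell cycle engine and its E2F control: cyclins, cyclin-dependent kinases (CDKs) and their inhibitors, the CDC25 phosphatases, replication licensing factors, the RB and E2F families and mitotic kinases. They were taken by symbol from the 2 deposited gene tables, which list 55487 mouse genes, and each of the 52 was found in both. By role, 10 are G1 cyclins, kinases and activators, 10 act in licensing and S phase, 17 in G2 and M phase, 4 are CDK inhibitors, 3 belong to the RB family and 8 to the E2F family. RNA had been sequenced from E12.5 erythroid progenitors of the fetal liver of strain 129S6/SvEvTac mice, in 15 libraries that form 5 groups of 3. Group 1 of mice holds wildtype (WT) and Rpl5 mutant (M) libraries labelled as polyA RNA. Group 2 of mice holds wildtype (WT), mutant (M) and low-yield mutant (M-lowyield) libraries labelled as total RNA. For group 2 a deposited sample sheet gives both kinds of mutant the allele name Rpl5plusSkax23Jus, and the labels name no allele for group 1. What low-yield means, and whether a library holds 1 embryo or several, is not given in the labels, so p-values measure the spread between these libraries, which may be technical. Because the labelled RNA differs, no level was compared between the groups of mice.

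Progress through the cell cycle is driven by CDKs that are switched on by cyclins. D cyclins with Cdk4 and Cdk6, and then E cyclins with Cdk2, phosphorylate the RB proteins, which releases E2F factors to switch on genes for DNA replication, among them further E2F genes. A and B cyclins with Cdk1 then take the cell through G2 and mitosis. In the erythroid lineage cyclin D3 and E2f2 are known for their part in coordinating the last divisions with maturation, and Rpl5, a gene for a protein of the ribosome's large subunit, is mutated in some patients with Diamond Blackfan anemia, an inherited failure of red cell production.

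The promoters show which members carry the letters of the E2F site and of the cell cycle genes homology region (CHR), the element typical of G2/M genes. RefSeq promoter windows on GRCm38.p6, from 250 bases before to 50 after the start site, were found for 39 of the 52 members. The E2F search used TTTCCCGC, TTTCGCGC and TTTGGCGC and the CHR search TTTGAA and TTCGAA, each on both strands with overlapping matches allowed (TTCGAA is the same on both). An E2F match was present in 14 of the 39 genes (35.9%) against 2.12% of the 27025 genes of the table, and a CHR match in 18 (46.2%) against 21.7%. By role, 6 of 8 licensing and S phase genes (75%) had an E2F match, and 11 of 12 G2/M genes (91.7%) had a CHR match. The windows below, with matches in capitals, show 3 genes that fell in both groups of mice (Rbl1, Mcm6 and Cdc25b) and 2 that were not called (Mcm3 and Cdk1), with Mcm3 set beside Mcm6 as a subunit of the same helicase. Rbl1 (chr2:157204485-157204784, minus strand) and Mcm6 (chr1:128359656-128359955, minus) fell, Mcm3 (chr1:20820263-20820562, minus) was not called, Cdk1 (chr10:69352863-69353162, minus) was not called and holds both kinds of match, and Cdc25b (chr2:131186698-131186997, plus) fell and holds a CHR match only.
Rbl1: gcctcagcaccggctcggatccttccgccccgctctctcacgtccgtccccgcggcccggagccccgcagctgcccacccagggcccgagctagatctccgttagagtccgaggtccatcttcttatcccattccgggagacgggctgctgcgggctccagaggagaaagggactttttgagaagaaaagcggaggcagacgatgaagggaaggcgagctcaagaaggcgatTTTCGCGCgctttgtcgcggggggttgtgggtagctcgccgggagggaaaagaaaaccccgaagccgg
Mcm6: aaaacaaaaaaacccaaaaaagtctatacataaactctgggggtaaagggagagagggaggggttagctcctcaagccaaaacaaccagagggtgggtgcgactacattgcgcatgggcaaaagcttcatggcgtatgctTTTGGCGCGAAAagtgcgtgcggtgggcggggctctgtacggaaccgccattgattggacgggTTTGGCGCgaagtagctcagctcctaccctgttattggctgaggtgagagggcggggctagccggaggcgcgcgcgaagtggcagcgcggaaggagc
Mcm3: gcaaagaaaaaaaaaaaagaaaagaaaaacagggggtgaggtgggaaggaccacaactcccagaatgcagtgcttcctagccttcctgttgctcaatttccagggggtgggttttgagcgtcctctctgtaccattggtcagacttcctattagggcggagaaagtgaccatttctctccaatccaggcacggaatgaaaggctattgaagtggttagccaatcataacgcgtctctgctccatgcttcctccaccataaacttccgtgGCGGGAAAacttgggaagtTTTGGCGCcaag
Cdk1: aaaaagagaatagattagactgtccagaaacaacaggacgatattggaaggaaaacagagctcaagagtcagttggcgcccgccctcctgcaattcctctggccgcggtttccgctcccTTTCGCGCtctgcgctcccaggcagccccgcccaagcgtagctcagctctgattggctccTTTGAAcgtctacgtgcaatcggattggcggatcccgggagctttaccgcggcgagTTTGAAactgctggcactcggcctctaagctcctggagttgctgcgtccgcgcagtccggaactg
Cdc25b: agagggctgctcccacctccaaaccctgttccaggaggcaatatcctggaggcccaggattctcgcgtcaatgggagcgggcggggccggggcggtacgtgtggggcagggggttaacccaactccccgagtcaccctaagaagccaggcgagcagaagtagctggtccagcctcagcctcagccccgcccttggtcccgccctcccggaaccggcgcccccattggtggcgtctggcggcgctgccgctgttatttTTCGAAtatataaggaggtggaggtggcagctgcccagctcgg
In Rbl1 the TTTCGCGC match began 18 bases upstream of the start site. Mcm6 held 3 matches, of which those beginning 110 and 106 bases upstream overlap, and Mcm3 held 2, beginning 20 and 39 bases downstream. The letters did not separate the members that fell from the others. An E2F match was present in 6 of 15 genes that were lower over both groups of mice (40%) and in 8 of 24 others (33.3%), and a CHR match in 6 of 15 (40%) and 12 of 24 (50%). A match is a run of letters, not a shown binding site.

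Libraries of group 1 held 48510828 to 58513669 counts, and those of group 2 held 24954324 to 44827821. The mutated gene, Rpl5, was lower in every mutant library than in every wildtype library of its group of mice, with log2 fold changes of -0.32 (group 1, adjusted p 0.00971), -0.46 (group 2 mutant, 0.0117) and -0.44 (low-yield mutant, 0.0087). Erythroid markers were abundant in all groups. Of 16 listed erythroid markers 15 are in the tables, all detected in each group, and their summed level ran from 6974 to 10356 CPM in wildtype and from 3983 to 4382 CPM in mutant libraries of group 1. The same sum in group 2 ran from 8758 to 15913 CPM in wildtype, from 5669 to 6669 CPM in mutant and from 4933 to 6913 CPM in low-yield mutant libraries. The sum of 12 granulocyte markers moved the other way in group 2, from 18.0 to 37.9 CPM in wildtype to between 144.5 and 236 CPM in mutant and 181 and 395 CPM in low-yield mutant libraries. In group 1 it overlapped, at 104.8 to 808 CPM in wildtype and 266.6 to 1508 CPM in mutant libraries. Endothelial markers, a list of 6, were low but higher without overlap in group 2, where they summed to between 0.896 and 1.90 CPM in wildtype, 3.56 and 5.87 CPM in mutant and 6.45 and 10.0 CPM in low-yield mutant libraries. In group 1 they overlapped (2.09 to 4.38 CPM in wildtype, 3.91 to 9.67 CPM in mutant libraries). The 12 hepatocyte markers were lower without overlap in group 1, at 35.9 to 67.2 CPM in wildtype and at most 23.7 CPM in each mutant library. In group 2 their ranges overlapped (12.7 to 89.4 CPM in wildtype, 11.4 to 54.4 CPM in mutant, 49.2 to 55.0 CPM in low-yield mutant libraries). The 11 macrophage markers overlapped in both groups of mice and summed to at most 11.6 CPM, with Timd4 at 0 in all groups. Megakaryocyte markers summed to between 30.6 and 67.3 CPM in every library, with the low-yield mutant libraries at 62.3 to 67.3 CPM above the other libraries of group 2. The sum hides differences between its genes. In group 2 Vwf was the most abundant in wildtype (mean 24.6 CPM) and mutant libraries (16.2 CPM), and Itga2b in low-yield mutant libraries (28.4 CPM). The part of these marker shifts in the results that follow was not tested. In bulk RNA, fewer cells of a type and less RNA per cell cannot be told apart.

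In mutant progenitors several replication licensing, E2F and RB family genes fell, Ccnd2 rose while Ccnd3 and Ccne1 fell, and of the 17 G2/M genes 5 fell over both groups of mice. Of the 52 members, 51 passed the filter on low counts in every comparison, and the inhibitor gene Cdkn2a (counts of 0 to 4 per library) did not. A gene is called here when edgeR's quasi-likelihood test, adjusted over all genes tested, gave a p under 0.05. In group 1, 20 of 51 members (39.2%) were called between mutant and wildtype, against 12.6% of all genes tested. With the replicate numbers of group 1 as a block, 24 members were called, against 20.4% of all genes, E2f4, E2f6, Mki67 and Skp2 being added. That pairing was inferred from these data, where same-numbered libraries tended to vary together, and is not in the labels. It was not clean, since wildtype replicate 3 correlated more with mutant replicate 2 (0.47) than with mutant replicate 3 (0.39). Of the 20, 18 were lower and 2 higher, where 6.78% of all genes were lower and 5.79% higher. In the group 2 mutant 11 members (21.6%) were called, against 6.27% of all genes, 10 of them lower and 1 higher (all genes: 2.95% and 3.32%). In the low-yield mutant 15 members (29.4%) were called, 14 of them lower, against 5.86% of all genes, and 1 higher, against 6.68%. The mutant and the low-yield mutant of group 2 were set against the same 3 wildtype libraries. Fitting both groups of mice together, with the group as a block, called 22 members (43.1%), 20 lower and 2 higher, against 19.6% of all genes. The median log2 fold change of the 51 members was -0.17 in group 1, -0.14 in the group 2 mutant and -0.16 in the low-yield mutant, where all genes tested had medians of 0.01, -0.01 and -0.00.

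**Figure D1:**
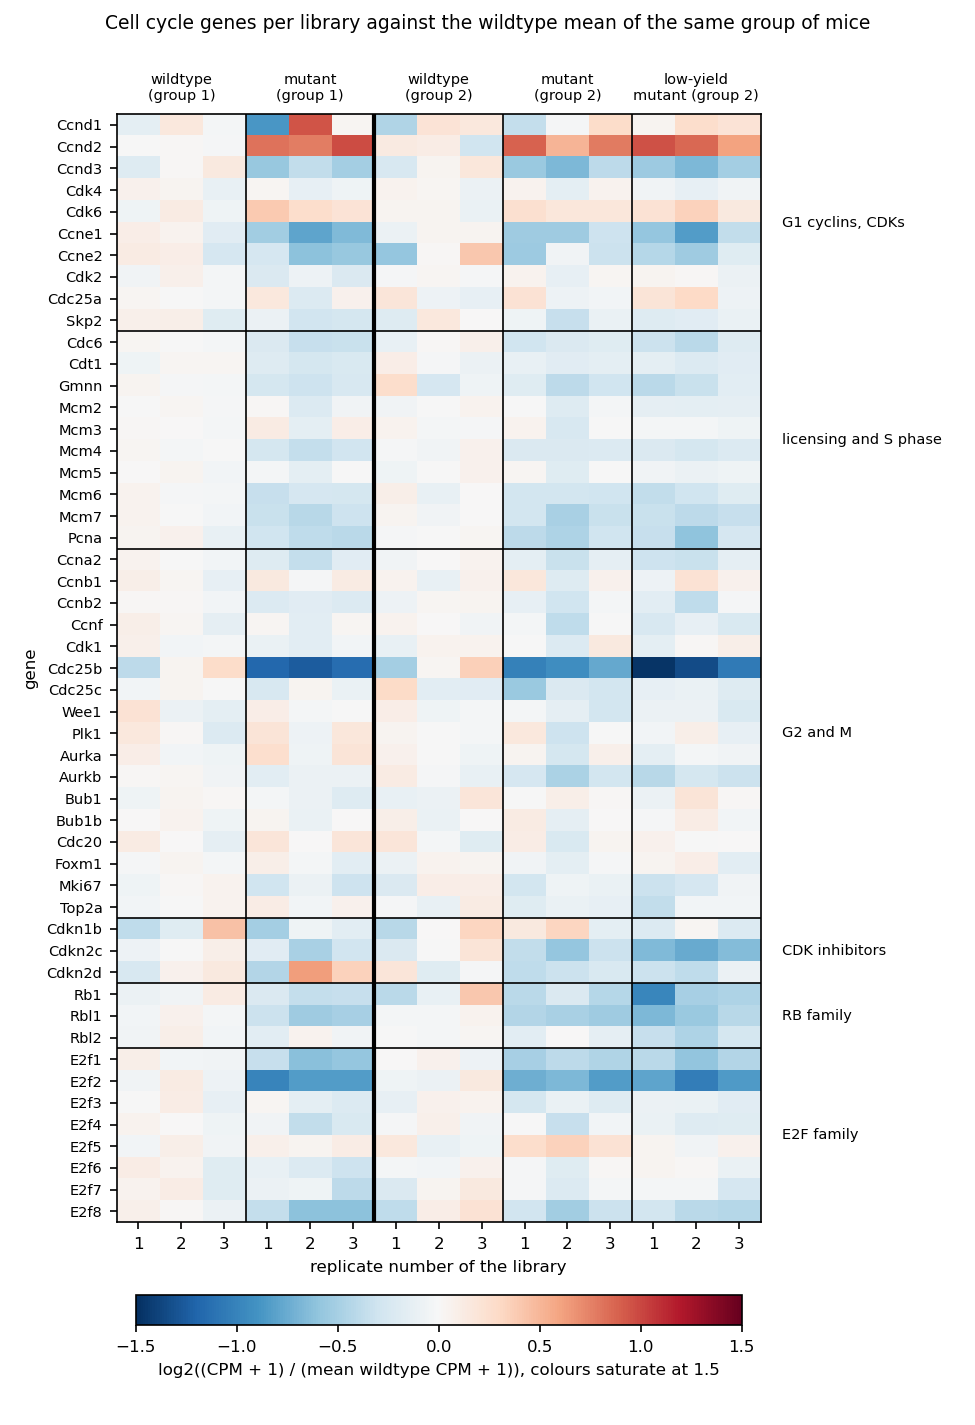
Level of 51 members (rows, ordered by role) in each of the 15 libraries (columns, by group and replicate number), as log2 of CPM plus 1 over the mean wildtype CPM plus 1 of the same group of mice. Blue is lower and red higher than wildtype. Ccnd2 is red and E2f2, Cdc25b and Ccne1 are blue in all 9 mutant and low-yield columns, while most G2 and M phase rows stay pale.

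10 members were called in the same direction in the mutant of both groups of mice (Ccnd2 higher; Ccnd3, Ccne1, Cdc25b, E2f1, E2f2, Mcm6, Mcm7, Pcna and Rbl1 lower), that is 10 of 51 where 651 of 13370 genes tested in both (4.87%) did so. The estimates of 40 of the 51 members (78.4%) had the same sign in both groups, near the 76.8% of all genes tested in both. For no member was the genotype difference called as differing between the groups of mice (edgeR's interaction term called 0 of 51 members and 3 of all genes, 0.0188%, with 0 members at an unadjusted p under 0.05, and DESeq2 called 0 members and 12 genes). The counts depend on single libraries. In group 1 they ran from 12 members without wildtype replicate 1 and 13 without mutant replicate 3 to 19. In the group 2 mutant they were 6 without wildtype replicate 2, 6 without mutant replicate 1 and 6 without mutant replicate 2, and in the low-yield mutant 8 without low-yield replicate 2. Over both groups of mice they stayed between 19 and 24.

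**Figure D2:**
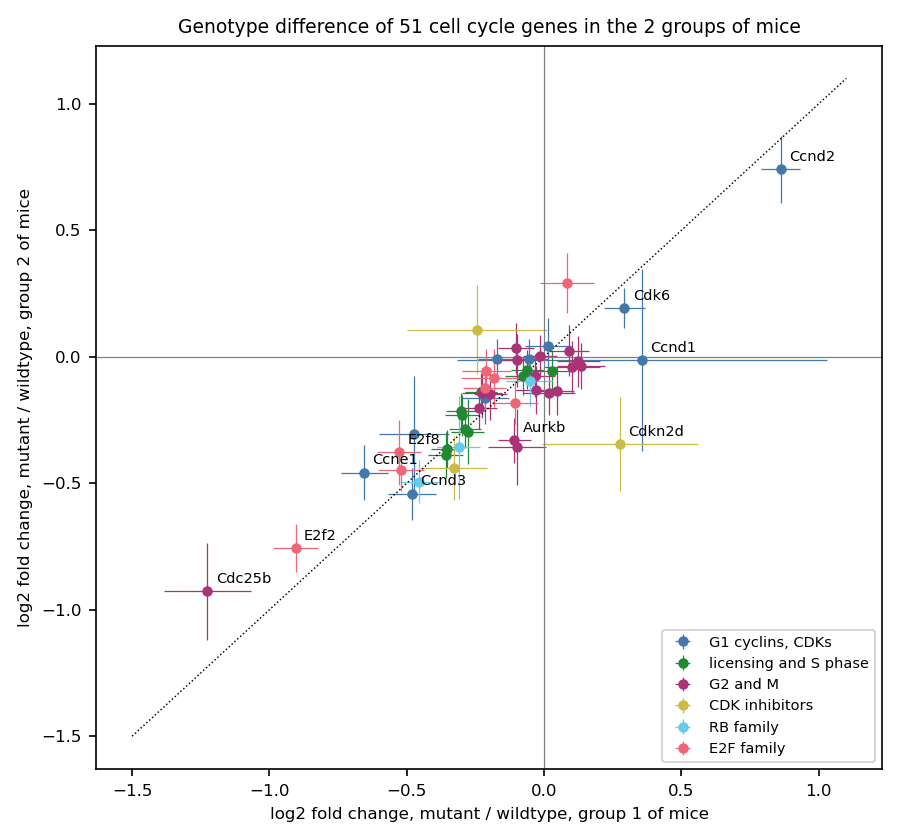
Log2 fold change of mutant over wildtype for 51 members in group 1 (horizontal) and group 2 of mice (vertical), coloured by role, with bars of 1 standard error on each axis and the dotted line of equal change. Ccnd2 stands alone at the upper right (0.86 and 0.74), Cdc25b (-1.23 and -0.93) and E2f2 (-0.91 and -0.76) lie at the lower left, and Ccnd1 and Cdkn2d have the longest horizontal bars.

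The D cyclins, which open G1, changed in composition. Ccnd2 (cyclin D2; chromosome 6, 127125162 to 127152193, on GRCm38 with the GENCODE M21 annotation, as for all genes here) stood at 66.8, 67.9 and 66.2 CPM in wildtype and 118, 114 and 132 CPM in mutant libraries of group 1 (log2 fold change 0.86, SE 0.07, adjusted p 3.22e-05). Ccnd2 in group 2 stood at 121, 119 and 89.2 CPM in wildtype, 203, 156 and 189 CPM in mutant and 214, 201 and 167 CPM in low-yield mutant libraries. Libraries of both kinds of mutant all lay above the wildtype libraries of their group, and Ccnd2 rose by 0.74 on the log2 scale in the mutant (SE 0.13, adjusted p 0.00569), and its low-yield increase was 0.82 (SE 0.13, adjusted p 0.00153). Ccnd3 (cyclin D3; chromosome 17, 47505051 to 47599691) went the other way. Its level was 219, 253 and 276 CPM in wildtype and 168, 194 and 175 CPM in mutant libraries of group 1 (log2 fold change -0.48, SE 0.09, adjusted p 0.00551). Ccnd3 in group 2 stood at 282, 345 and 375 CPM in wildtype, 226, 209 and 253 CPM in mutant and 229, 209 and 233 CPM in low-yield mutant libraries, again with no overlap between wildtype and either mutant. Ccnd3 fell by 0.54 on the log2 scale in the mutant (SE 0.10, adjusted p 0.00626) and by 0.58 in the low-yield mutant (SE 0.10, adjusted p 0.00212). Ccnd1 (cyclin D1) was at or under 3.61 CPM in every library and was called in no comparison. Its exons share 1100 bases with LTO1 on the other strand, so its level is uncertain.

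Counted per length (CPM per kilobase of exon, RPKM), Ccnd3 was the main D cyclin in every library, by a smaller margin in mutants. Its mean ratio to Ccnd2 was 3.99 in wildtype and 1.58 in mutant libraries of group 1, and 3.37, 1.35 and 1.26 in wildtype, mutant and low-yield mutant libraries of group 2. In group 1 wildtype libraries Ccnd3 was at 28.4 ± 3.29 RPKM and Ccnd2 at 7.12 ± 0.0928 RPKM (mean ± SD, n = 3), and in mutant libraries at 20.4 ± 1.52 and 12.9 ± 1.01 RPKM. The share of Ccnd3 in the per-length sum of the 3 D cyclins was 77.2%, 79.2% and 81.1% in wildtype and 60.2%, 63.1% and 58.1% in mutant libraries of group 1. Its share among group 2 libraries came to 71.1%, 75.0% and 81.1% (wildtype), 54.1%, 58.3% and 58.3% (mutant) and 53.1%, 52.2% and 59.3% (low-yield mutant). The shares of wildtype and mutant libraries did not overlap in either group of mice, whereas on these lengths their sums did. The sum was 35.8 ± 3.30 RPKM in wildtype and 33.7 ± 1.72 RPKM in mutant libraries of group 1, and 50.1 ± 4.20, 46.0 ± 4.57 and 46.6 ± 2.35 RPKM in wildtype, mutant and low-yield mutant libraries of group 2. The lengths join all annotated exons, 8775 bases for Ccnd3 and 9409 for Ccnd2, while the longest coding transcript of Ccnd3 has 2113 bases. A shorter length would give Ccnd3 more weight. The ratios, shares and sums therefore depend on this choice, and an unchanged sum was not shown.

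Of the kinases that D cyclins activate, Cdk6 rose in group 1 and Cdk4 was called in no comparison. Cdk6 stood at 187, 213 and 186 CPM in wildtype and 258, 235 and 226 CPM in mutant libraries of group 1 (log2 fold change 0.29, SE 0.07, adjusted p 0.0238). In group 2 the 3 wildtype libraries (461, 461 and 418 CPM) lay below the mutant (527, 501 and 502 CPM) and the low-yield mutant libraries (521, 570.1 and 496 CPM), without passing the test (adjusted p 0.171 and 0.0531). Over both groups Cdk6 rose by 0.24 (adjusted p 0.00432). The call in group 1 was lost without wildtype replicate 1, wildtype replicate 3 or mutant replicate 1 (adjusted p up to 0.0936). Cdk4 was the most abundant of the G1 genes per length, at 174 ± 11.9 RPKM in wildtype and 167 ± 9.13 RPKM in mutant libraries of group 1, a log2 difference of -0.05 (SE 0.07, adjusted p 0.659).

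Cyclin E is the partner of Cdk2 at the G1/S border. Of its genes, Ccne1 was called lower in each comparison with wildtype, and Ccne2 was called in group 1 but not in group 2. Ccne1 (chromosome 7, 38097984 to 38107534) stood at 269, 261 and 224 CPM in wildtype and 175, 145 and 159 CPM in mutant libraries of group 1 (log2 fold change -0.66, SE 0.09, adjusted p 0.000909). Ccne1 in group 2 stood at 209, 229 and 229 CPM in wildtype, 153, 154 and 178 CPM in mutant (log2 fold change -0.46, SE 0.11, adjusted p 0.0207) and 148, 123 and 172 CPM in low-yield mutant libraries (log2 fold change -0.58, SE 0.11, adjusted p 0.00268). All 9 mutant and low-yield libraries lay below every wildtype library of their group. For the group 2 mutant that call did not survive without wildtype replicate 2, wildtype replicate 3, mutant replicate 1 or mutant replicate 2 (adjusted p up to 0.101). Ccne2, the other E cyclin, was at 76.9, 76.1 and 59.4 CPM in wildtype and 59.3, 45.9 and 47.6 CPM in mutant libraries of group 1 (log2 fold change -0.47, SE 0.13, adjusted p 0.0441). That call was lost without wildtype replicate 1 or 2 or mutant replicate 2 or 3 (adjusted p up to 0.205) and with RLE normalisation (0.0507) or no low-count filter (0.0683). In group 2 wildtype Ccne2 ran from 32.4 to 64.9 CPM and covered all mutant libraries, and the gene was not called there or over both groups (adjusted p 0.121, and 0.014 with the replicate numbers as a block, although those of group 2 were not shown to pair libraries). Cdk2 (log2 fold change -0.17, -0.01 and -0.01 in group 1, group 2 and the low-yield mutant), the phosphatase gene Cdc25a (0.01, 0.04 and 0.15) and Skp2, which marks the inhibitor p27 for destruction (-0.21, -0.17 and -0.16), were called in none of these. Skp2 was called in group 1 with the replicate numbers as a block (adjusted p 0.0481). Over the 10 genes of this role, 3 fell and 2 rose in group 1, where 6.78% of all genes fell and 5.79% rose. In the group 2 mutant 2 fell and 1 rose (all genes: 2.95% and 3.32%), as did 2 and 1 in the low-yield mutant (5.86% and 6.68%). Exons of Ccnd2, Ccnd3, Cdk4, Cdk6, Ccne2 and Cdk2 overlap genes on the other strand, and since the use of strand is not given in the sources used here, reads of such partners cannot be told apart.

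**Figure D3:**
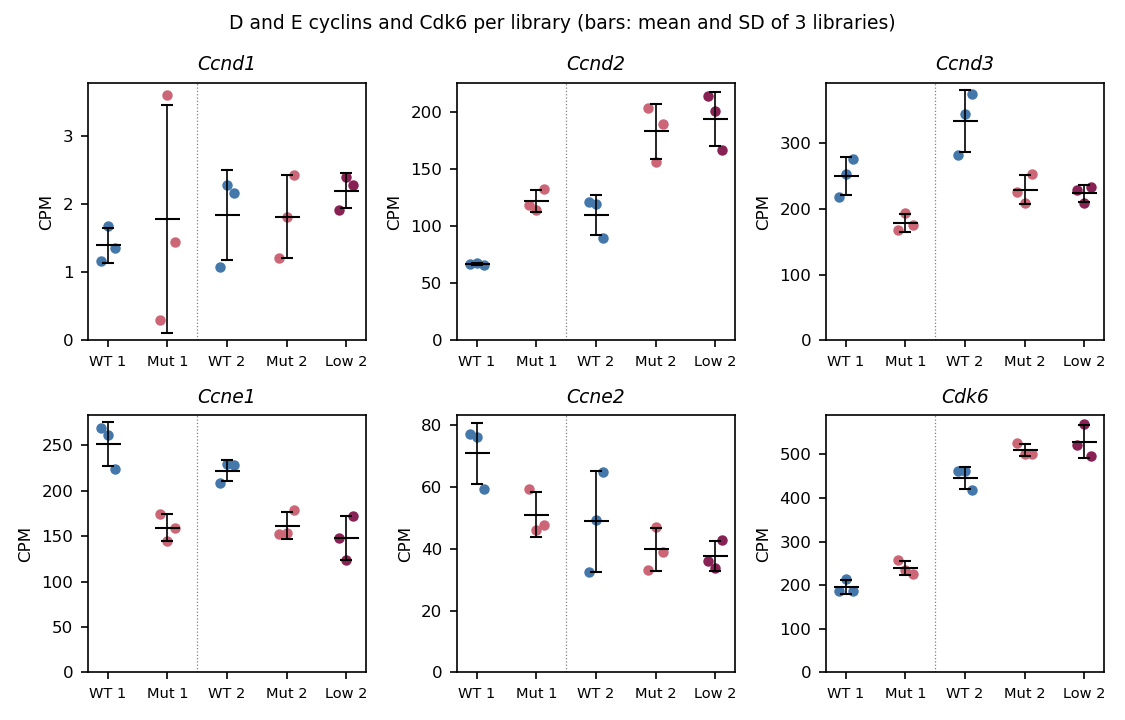
CPM of the D and E cyclins and Cdk6 (vertical, from 0) in each library, with points for libraries and black marks for mean and SD of 3 libraries. WT 1 and Mut 1 are wildtype and mutant of group 1, WT 2, Mut 2 and Low 2 wildtype, mutant and low-yield mutant of group 2, and the 2 groups of mice are not comparable in level. Ccnd2 is higher and Ccnd3 and Ccne1 lower in every mutant library than in wildtype, while Ccne2 overlaps in group 2.

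Licensing and S phase genes were lower in mutants as far as they were called. Of the 10, 7 fell in group 1 (70%, against 6.78% of all genes), 3 in the group 2 mutant (30%, against 2.95%) and 5 in the low-yield mutant (50%, against 5.86%), and none was called higher, against 5.79%, 3.32% and 6.68% of all genes. The median log2 fold change of the list was -0.28, -0.22 and -0.26, and over both groups of mice all 10 estimates were below 0 (7987 of 15954 genes tested) and 7 were called lower (70%, against 9.8% of all genes). Pcna encodes the sliding clamp that holds DNA polymerase on its template. It stood at 583, 590.0 and 525 CPM in wildtype and 462, 435 and 427 CPM in mutant libraries of group 1 (log2 fold change -0.36, SE 0.07, adjusted p 0.0045). Pcna in group 2 stood at 312, 313 and 321 CPM in wildtype, 239, 228 and 256 CPM in mutant (log2 fold change -0.39, SE 0.09, adjusted p 0.0187) and 247, 206 and 265 CPM in low-yield mutant libraries (log2 fold change -0.40, SE 0.09, adjusted p 0.0094). The groups did not overlap in either group of mice. Without wildtype replicate 2 or 3 or mutant replicate 1 or 2 the adjusted p in the group 2 mutant rose to as much as 0.0763, and in the low-yield mutant it reached 0.073 once low-yield replicate 2 was dropped. The near-identical processed pseudogene Pcna-ps2 held reads equal to 7.23% of the Pcna count. The sum of both gave log2 ratios of mean CPM of -0.36, -0.37 and -0.39 in group 1, the group 2 mutant and the low-yield mutant, where Pcna alone gave -0.36, -0.39 and -0.40.

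The 6 Mcm genes encode the subunits of the ring-shaped replicative helicase, and they fell into those that were called lower and those that were not. Mcm4, Mcm6 and Mcm7, whose proteins are known to form a core subcomplex, were called lower both in the low-yield mutant and in group 1. Mcm2, Mcm3 and Mcm5 were called in no comparison. Mcm7 (chromosome 5, 138164583 to 138172422) stood at 596, 573 and 557 CPM in wildtype and 456, 430.3 and 464 CPM in mutant libraries of group 1 (log2 fold change -0.35, SE 0.06, adjusted p 0.00289). Mcm7 in group 2 stood at 707, 661 and 686 CPM in wildtype, 564, 487 and 544 CPM in mutant (log2 fold change -0.36, SE 0.08, adjusted p 0.0106) and 542, 522 and 538 CPM in low-yield mutant libraries (log2 fold change -0.36, SE 0.08, adjusted p 0.00636). Wildtype libraries were above all mutant libraries of their group, and without low-yield replicate 2 the last adjusted p was 0.0512. Mcm6 stood at 716, 684 and 678 CPM in wildtype and 546, 579.5 and 578 CPM in mutant libraries of group 1 (log2 fold change -0.29, SE 0.06, adjusted p 0.00805, and 0.055 without wildtype replicate 1). Mcm6 in group 2 stood at 594, 517 and 562 CPM in wildtype, 459, 462 and 453 CPM in mutant (log2 fold change -0.28, SE 0.08, adjusted p 0.0436) and 433, 452 and 491 CPM in low-yield mutant libraries (log2 fold change -0.28, SE 0.08, adjusted p 0.0279). These groups did not overlap, yet the call in the group 2 mutant was lost when any of 8 of the 9 libraries was left out, low-yield replicate 3 being the exception (adjusted p up to 0.157), and in a fit of the 6 compared libraries alone (0.0828). In the low-yield mutant it was lost without wildtype replicate 1 or 3, mutant replicate 3 or low-yield replicate 1 or 2 (adjusted p up to 0.174) and in the fit of 6 (0.0531). Mcm4 stood at 458, 439 and 447 CPM in wildtype and 375, 349 and 368 CPM in mutant libraries of group 1 (log2 fold change -0.30, SE 0.06, adjusted p 0.0059). Mcm4 in group 2 stood at 398, 388 and 419 CPM in wildtype, 344, 346 and 349 CPM in mutant (log2 fold change -0.21, SE 0.07, adjusted p 0.0836) and 344, 334 and 347 CPM in low-yield mutant libraries (log2 fold change -0.23, SE 0.07, adjusted p 0.0392). Wildtype and mutant Mcm4 did not overlap, but the low-yield call was lost when any 1 of 8 libraries (each but mutant replicate 2) was left out (adjusted p up to 0.181), without the low-count filter (0.0736) and in a fit of the 6 compared libraries alone (0.0641).

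The other 3 subunits differed less from wildtype. Mcm3, whose promoter window above holds 2 E2F matches, stood at 460.2, 456 and 443 CPM in wildtype and 492, 411 and 485 CPM in mutant libraries of group 1 (log2 fold change 0.03, SE 0.07, adjusted p 0.83). Mcm2 and Mcm5 had log2 fold changes of -0.08 and -0.06 in group 1, -0.08 and -0.05 in the group 2 mutant and -0.14 and -0.07 in the low-yield mutant. Per length, the share of Mcm4, Mcm6 and Mcm7 in the sum of all 6 subunits was 52.9%, 51.5% and 52.4% in wildtype and 46.3%, 49.1% and 47.1% in mutant libraries of group 1. Among group 2 libraries this share came to 46.3%, 44.2% and 44.9% (wildtype), 40.3%, 42.9% and 40.6% (mutant) and 41.0%, 41.1% and 42.2% (low-yield mutant). The shares did not overlap between wildtype and mutant in either group of mice. This split was made after the values were seen, so it is given without a test. The exons of Mcm7 overlap Ap4m1 and Cops6 on the other strand.

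For the licensing factors Cdc6 and Cdt1 and the inhibitor gene Gmnn, estimates against wildtype lay 0.14 to 0.31 below 0 on the log2 scale. Each was called in group 1 and over both groups of mice. In group 2 only Cdc6 was called, and only in the low-yield mutant. Cdc6, which loads the helicase onto origins, stood at 209.9, 205 and 201 CPM in wildtype and 177, 161 and 162 CPM in mutant libraries of group 1 (log2 fold change -0.30, SE 0.06, adjusted p 0.00834). Cdc6 in group 2 stood at 239.8, 262 and 273 CPM in wildtype, 210.5, 222 and 227 CPM in mutant (log2 fold change -0.23, SE 0.08, adjusted p 0.11) and 206, 194 and 225 CPM in low-yield mutant libraries (log2 fold change -0.31, SE 0.08, adjusted p 0.0215). All 3 groups of mutant libraries lay below their wildtype libraries, but the call was lost in group 1 without wildtype replicate 1 or mutant replicate 3 (adjusted p up to 0.0665). It was lost in the low-yield mutant without wildtype replicate 2 or 3 or low-yield replicate 1 or 2 (adjusted p up to 0.136). Cdt1, its partner in licensing, stood at 196, 209 and 208 CPM in wildtype and 178, 170.0 and 174 CPM in mutant libraries of group 1 (log2 fold change -0.23, SE 0.06, adjusted p 0.0228). Without any of the 3 wildtype replicates or mutant replicate 3 its call was lost (adjusted p up to 0.102). Gmnn encodes geminin, the inhibitor of Cdt1, and stood at 111, 106 and 106 CPM in wildtype and 89.3, 86.6 and 90.9 CPM in mutant libraries of group 1 (log2 fold change -0.28, SE 0.06, adjusted p 0.0115). It lost its call without wildtype replicate 1 or mutant replicate 3 (adjusted p up to 0.07). In group 2 neither was called. Cdt1 ran from 344 to 394 CPM in wildtype and from 319 to 341 CPM in the 6 mutant and low-yield libraries, whereas Gmnn overlapped, at 34.1 to 49.2 CPM and 30.6 to 36.5 CPM. Over both groups of mice Cdc6 fell by 0.26 (adjusted p 0.00154), Cdt1 by 0.18 (adjusted p 0.0125) and Gmnn by 0.29 (adjusted p 0.00845) on the log2 scale, and these calls held with each library left out in turn.

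Of the 8 E2F genes, E2f1 and E2f2 fell in each comparison with wildtype, and E2f8 fell in group 1 and over both groups of mice but was not called in group 2. That is 3 of 8 in group 1 (37.5%, against 6.78% of all genes called lower), 2 in the group 2 mutant (25%, against 2.95%) and 2 in the low-yield mutant (25%, against 5.86%), with none called higher. The other 5 were not called, apart from E2f4 and E2f6 in the fits with a replicate block given below. E2f1, E2f2 and E2f3 encode the activators of S phase genes, E2f4, E2f5 and E2f6 repressors, and E2f7 and E2f8 atypical repressors that are E2F targets themselves. E2f2 (chromosome 4, 136172394 to 136196057) stood at 72.6, 82.5 and 71.3 CPM in wildtype and 37.4, 41.7 and 41.7 CPM in mutant libraries of group 1 (log2 fold change -0.91, SE 0.08, adjusted p 7.35e-05). E2f2 in group 2 stood at 128, 126 and 149 CPM in wildtype, 80.5, 84.0 and 74.7 CPM in mutant (log2 fold change -0.76, SE 0.09, adjusted p 0.000379) and 77.1, 64.9 and 73.9 CPM in low-yield mutant libraries (log2 fold change -0.90, SE 0.09, adjusted p 5.29e-05). Wildtype libraries were far above all mutant libraries of their group, and over both groups E2f2 fell by 0.83 (SE 0.06, adjusted p 3.79e-08), the smallest p among the 51 members. E2f1 stood at 79.7, 72.5 and 71.9 CPM in wildtype and 58.3, 48.1 and 49.7 CPM in mutant libraries of group 1 (log2 fold change -0.52, SE 0.09, adjusted p 0.00258). E2f1 in group 2 stood at 99.9, 104 and 94.2 CPM in wildtype, 70.1, 75.7 and 72.5 CPM in mutant (log2 fold change -0.45, SE 0.08, adjusted p 0.00507) and 74.5, 65.8 and 72.9 CPM in low-yield mutant libraries (log2 fold change -0.48, SE 0.08, adjusted p 0.00157). Here too no mutant library reached the wildtype range, and the calls of E2f1 and E2f2 held with each library left out in turn. E2f3, the remaining activator, stood at 69.0, 74.6 and 63.5 CPM in wildtype and 70.5, 62.2 and 59.8 CPM in mutant libraries of group 1 (log2 fold change -0.11, SE 0.08, adjusted p 0.46) and was not called in group 2 either (log2 fold change -0.18 and -0.12).

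E2f8 fell in group 1, from 137, 131 and 122 CPM in wildtype to 101, 84.5 and 84.5 CPM in mutant libraries (log2 fold change -0.53, SE 0.08, adjusted p 0.00188). In group 2 its wildtype libraries were spread (111, 156 and 170.1 CPM) and overlapped the mutant (119, 101 and 117 CPM) and low-yield mutant libraries (119.8, 110.0 and 108 CPM), without a call (adjusted p 0.101 and 0.0739). Over both groups E2f8 fell by 0.45 (SE 0.10, adjusted p 0.00342), and its exons share 610 bases with Gm2788 on the other strand. E2f7, its relative, had log2 fold changes of -0.18, -0.09 and -0.11 without a call. Per length, E2f4 was the leading E2F gene by far, at 184 ± 7.23 RPKM in wildtype and 158 ± 17.6 RPKM in mutant libraries of group 1. E2f8 (23.9 ± 1.39 RPKM) and E2f1 (23.7 ± 1.37 RPKM) followed in wildtype within each other's spread, then E2f2 (15.5 ± 1.26), E2f6 (14.3 ± 1.55) and E2f3 (12.7 ± 1.02 RPKM), also close together. E2f5 (10.6 ± 0.639 RPKM) and E2f7 (2.73 ± 0.302 RPKM) closed the order. In mutant libraries of group 1 E2f2 (8.25 ± 0.509 RPKM) lay below E2f3 (11.8 ± 1.03 RPKM) and E2f5 (11.2 ± 0.322 RPKM). With the replicate numbers as a block, E2f4 (adjusted p 0.0247) and E2f6 (0.044) were called lower in group 1, as was E2f4 over both groups (0.04).

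The RB proteins hold E2F factors in check, and Rbl1 (p107), itself a known E2F target, was called lower in each comparison with wildtype. Rbl1 stood at 99.1, 106 and 99.9 CPM in wildtype and 80.9, 70.1 and 71.7 CPM in mutant libraries of group 1 (log2 fold change -0.45, SE 0.07, adjusted p 0.00228). Rbl1 in group 2 stood at 89.5, 89.7 and 94.5 CPM in wildtype, 67.1, 64.6 and 62.7 CPM in mutant (log2 fold change -0.49, SE 0.09, adjusted p 0.00391) and 56.7, 61.6 and 68.2 CPM in low-yield mutant libraries (log2 fold change -0.55, SE 0.09, adjusted p 0.00082). The wildtype and mutant libraries did not overlap, and each call held with every library left out in turn. Rb1 stood at 69.2, 71.1 and 80.6 CPM in wildtype and 63.0, 57.2 and 57.8 CPM in mutant libraries of group 1 (log2 fold change -0.31, SE 0.08, adjusted p 0.0234), a call lost without wildtype replicate 2 or 3 or mutant replicate 2 or 3 (adjusted p up to 0.116). In group 2 Rb1 was spread in wildtype (53.0, 64.7 and 92.9 CPM) and stood at 52.7, 60.4 and 52.0 CPM in mutant and 35.0, 49.4 and 50.9 CPM in low-yield mutant libraries (adjusted p 0.373 and 0.072). Over both groups Rb1 fell by 0.33 (adjusted p 0.0357), which was lost without wildtype replicate 3, mutant replicate 2 or mutant replicate 3 of group 1, or mutant replicate 1 or 3 of group 2 (adjusted p up to 0.0818), and without the low-count filter (0.0577). Rbl2 (p130), the form known from resting cells, was called in the low-yield mutant and in no other comparison. It stood at 41.7, 40.8 and 42.7 CPM in wildtype, 37.5, 41.8 and 37.9 CPM in mutant and 32.8, 29.9 and 34.5 CPM in low-yield mutant libraries of group 2 (low-yield against wildtype: log2 fold change -0.36, SE 0.10, adjusted p 0.0202), lost without wildtype replicate 2 or 3 or low-yield replicate 1 or 2 (adjusted p up to 0.118). The low-yield and mutant libraries of group 2 did not overlap in Rbl2, but their difference was not called (log2 fold change -0.27, SE 0.10, adjusted p 1). Exons of Rb1 (Rcbtb2 and Lpar6) and Rbl2 (Aktip and Gm45464) overlap genes on the other strand.

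**Figure D4:**
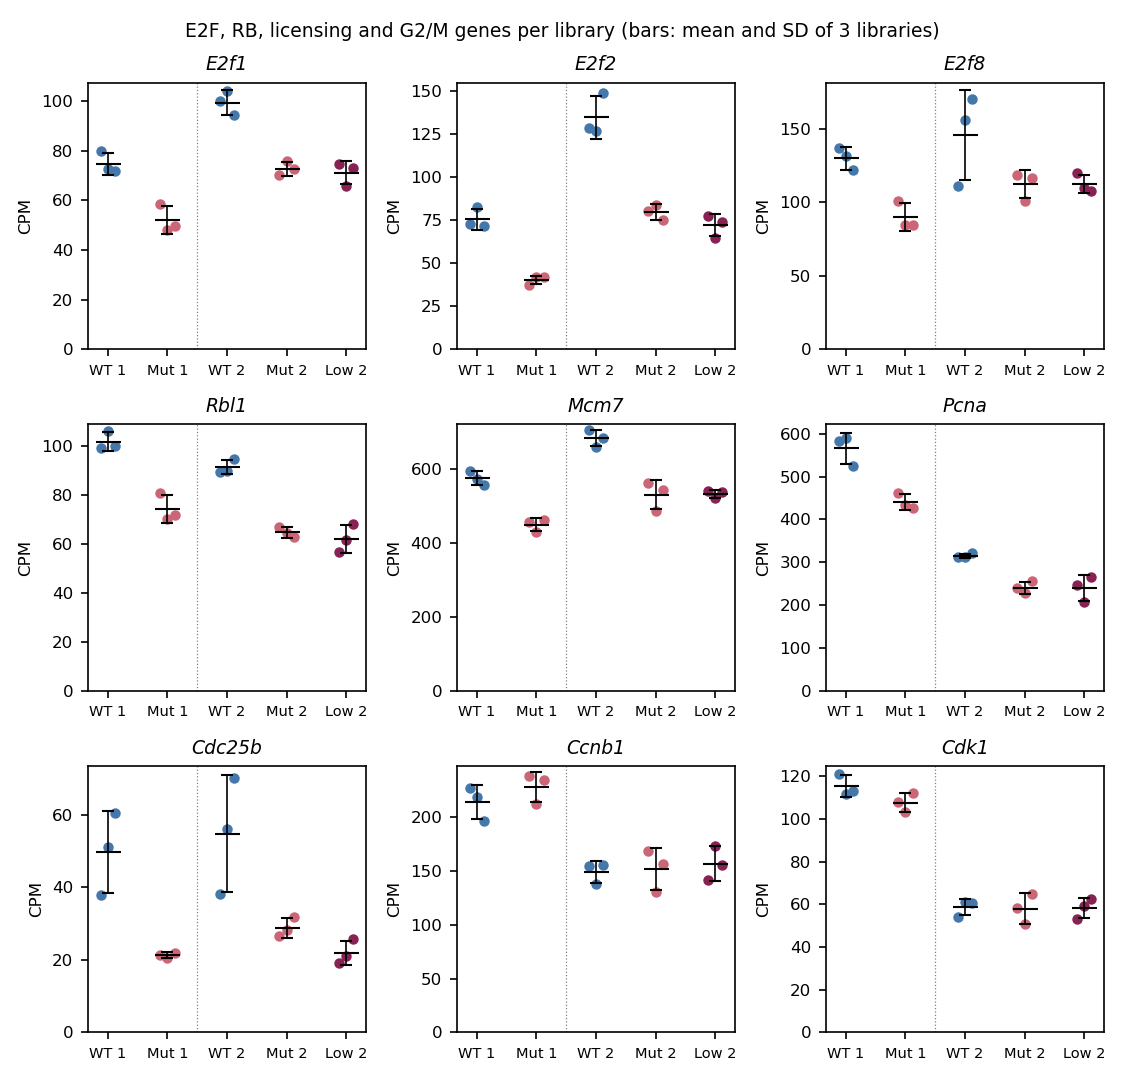
CPM (vertical, from 0) of 9 members in each library, with points for libraries and black marks for mean and SD of 3 libraries. WT 1 and Mut 1 are wildtype and mutant of group 1, and WT 2, Mut 2 and Low 2 are wildtype, mutant and low-yield mutant of group 2. E2f1, E2f2, Rbl1, Mcm7, Pcna and Cdc25b are lower in all mutant libraries than in wildtype, E2f8 overlaps in group 2, and Ccnb1 and Cdk1 overlap in both groups of mice.

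Those G2/M genes that were called were lower. Of 17, 3 fell in group 1 (17.6%, against 6.78% of all genes), 2 in the group 2 mutant (11.8%, against 2.95%) and 2 in the low-yield mutant (11.8%, against 5.86%), with medians of the log2 fold change of -0.03, -0.13 and -0.13. Over both groups of mice 5 fell (29.4%, against 9.8% of all genes called lower). Cdc25b, the phosphatase that activates cyclin and CDK complexes at the entry to mitosis, had the largest fall of all 51 members. It stood at 37.7, 50.9 and 60.3 CPM in wildtype and 21.4, 20.4 and 22.0 CPM in mutant libraries of group 1 (log2 fold change -1.23, SE 0.16, adjusted p 0.00217). Cdc25b in group 2 stood at 38.1, 55.9 and 70.1 CPM in wildtype, 26.5, 28.1 and 31.8 CPM in mutant (log2 fold change -0.93, SE 0.19, adjusted p 0.0158) and 19.1, 21.0 and 25.7 CPM in low-yield mutant libraries (log2 fold change -1.32, SE 0.19, adjusted p 0.00132). The wildtype libraries were widely spread in both groups of mice, with replicate 1 lowest in each, yet all lay above the mutant libraries. For the group 2 mutant this call did not survive without wildtype replicate 2 or mutant replicate 1 or 2 (adjusted p up to 0.0805). The low-yield mutant libraries lay below the mutant libraries without overlap, a difference that was not called (log2 fold change -0.39, SE 0.20, adjusted p 1). The other CDC25 gene of this phase, Cdc25c, had log2 fold changes of -0.10, -0.36 and -0.14 without a call, and 92 exon bases of Cdc25b overlap Spef1 on the other strand.

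Of the A and B cyclins, Ccna2 and Ccnb2 fell in group 1 and over both groups of mice and Ccnb1 was not called. Ccna2, which acts in S phase and G2, stood at 526, 508 and 493 CPM in wildtype and 446, 398 and 451 CPM in mutant libraries of group 1 (log2 fold change -0.24, SE 0.07, adjusted p 0.0345), a call lost with any library but mutant replicate 1 left out (adjusted p up to 0.154). Ccna2 in group 2 stood at 523, 543 and 561 CPM in wildtype, 489.7, 429.9 and 495 CPM in mutant and 436, 431 and 492 CPM in low-yield mutant libraries (adjusted p 0.171 and 0.0513). Wildtype and mutant libraries did not overlap in either group, and over both groups Ccna2 fell by 0.22 (adjusted p 0.00785), a call that held with each library left out in turn. Ccnb2 stood at 116, 115 and 111 CPM in wildtype and 98.6, 101 and 98.3 CPM in mutant libraries of group 1 (log2 fold change -0.20, SE 0.06, adjusted p 0.049), and its call was lost whichever library was left out (adjusted p up to 0.19), with RLE normalisation (0.0554) and without the low-count filter (0.0864). Over both groups it fell by 0.17 (adjusted p 0.0375), lost with 8 of 12 libraries left out in turn (adjusted p up to 0.0911). Those were wildtype replicates 1 and 2 and all 3 mutant replicates of group 1, and wildtype replicates 2 and 3 and mutant replicate 2 of group 2. Ccnb1 and Cdk1, the core of the mitotic kinase, were not called. Ccnb1 stood at 227, 219 and 196 CPM in wildtype and 238, 212 and 234 CPM in mutant libraries of group 1 (log2 fold change 0.09, adjusted p 0.456) and Cdk1 at 121, 112 and 113 and 108, 103 and 112 CPM (log2 fold change -0.10, adjusted p 0.354). In group 2 the log2 fold changes were 0.02 and 0.07 for Ccnb1 and -0.01 and -0.01 for Cdk1.

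Aurkb, the kinase that corrects chromosome attachment, fell in group 2 and over both groups of mice and was not called in group 1 alone. It stood at 173, 157 and 148 CPM in wildtype, 134, 114 and 131 CPM in mutant (log2 fold change -0.33, SE 0.09, adjusted p 0.0378) and 119, 132 and 127 CPM in low-yield mutant libraries of group 2 (log2 fold change -0.33, SE 0.09, adjusted p 0.0225). Wildtype libraries were above all others there, but the mutant call was lost with any of 8 of the 9 libraries left out, wildtype replicate 3 being the exception (adjusted p up to 0.111), and in a fit of the 6 compared libraries alone (0.0723). The low-yield call was lost without wildtype replicate 1 or 2 or low-yield replicate 1 or 2 (adjusted p up to 0.136). In group 1 it stood at 126, 127 and 119.8 CPM in wildtype and 112, 117 and 117 CPM in mutant libraries (log2 fold change -0.11, adjusted p 0.271), and the interaction was -0.20 (SE 0.12, adjusted p 1). Over both groups Aurkb fell by 0.22 (SE 0.06, adjusted p 0.0146), a call that held with each library left out in turn. Mki67, the gene of the Ki-67 proliferation marker, stood at 1228, 1305 and 1334 CPM in wildtype and 1051, 1214 and 1039 CPM in mutant libraries of group 1 (log2 fold change -0.23, SE 0.07, adjusted p 0.0619, and 0.02 with the replicate numbers as a block). Mki67 in group 2 stood at 1437, 1783 and 1785 CPM in wildtype, 1383, 1595 and 1556 CPM in mutant and 1336, 1404 and 1605 CPM in low-yield mutant libraries, overlapping and without a call (log2 fold change -0.14 and -0.20, adjusted p 0.475 and 0.211). Over both groups Mki67 fell by 0.18 (adjusted p 0.0428). That call was lost in the legacy mode of the test and with 8 of 12 libraries left out (adjusted p up to 0.107), namely all 3 wildtype replicates and mutant replicates 1 and 3 of group 1, and wildtype replicates 2 and 3 and mutant replicate 1 of group 2. The remaining G2/M genes, Ccnf, Wee1, Plk1, Aurka, Bub1, Bub1b, Cdc20, Foxm1 and Top2a with Ccnb1, Cdk1 and Cdc25c, were called in no comparison. Plk1 and Cdc20, which drive mitotic entry and exit, had log2 fold changes of 0.10 and 0.12 in group 1 and -0.04 and -0.02 in the group 2 mutant. Top2a, the topoisomerase that untangles chromosomes, had 0.05 and -0.14, and Foxm1, the transcription factor of this phase, -0.03 and -0.07.

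**Figure D5:**
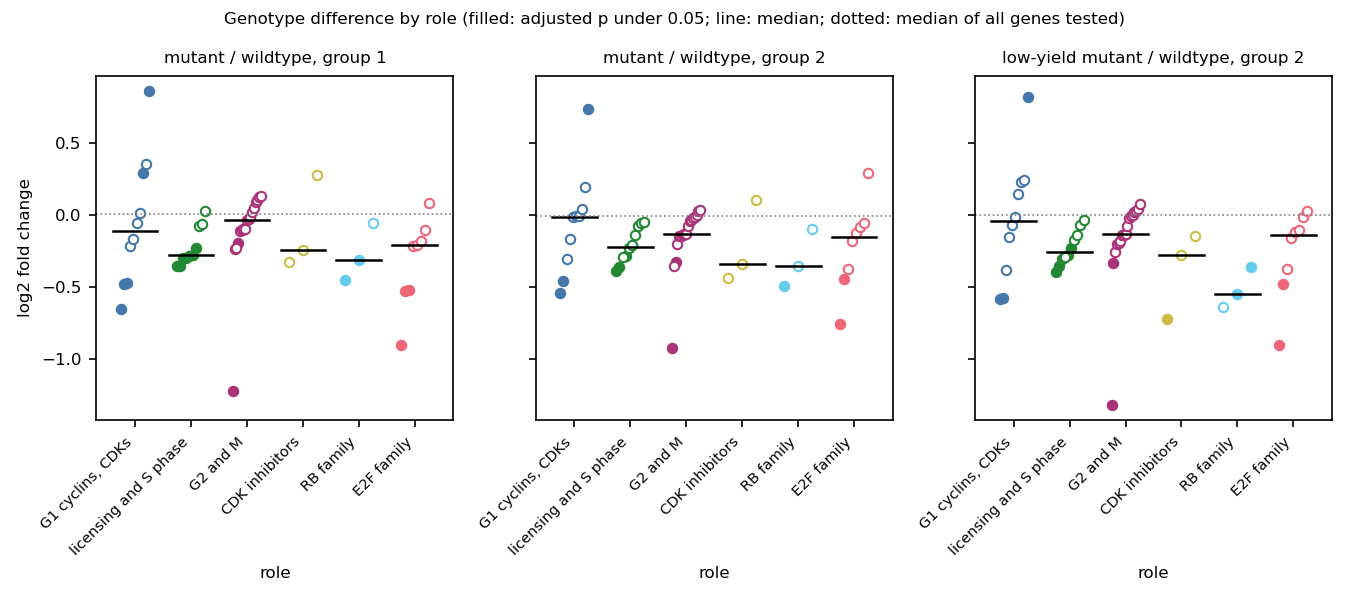
Log2 fold change (vertical) of each tested member by role in the 3 comparisons with wildtype, filled where called and open where not, with a black line at the median of the role and a dotted line at the median of all genes tested. Licensing and S phase medians are at -0.28, -0.22 and -0.26 and G2 and M medians at -0.03, -0.13 and -0.13.

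The CDK inhibitors among the members were few, and none passed 44.5 CPM in any library. Cdkn2c (p18), an INK4 inhibitor of Cdk4 and Cdk6, stood at 16.3, 17.1 and 18.3 CPM in wildtype and 15.2, 12.1 and 14.0 CPM in mutant libraries of group 1 (log2 fold change -0.33, SE 0.12, adjusted p 0.0979). Cdkn2c in group 2 stood at 24.2, 28.0 and 32.3 CPM in wildtype, 21.5, 18.4 and 22.2 CPM in mutant (log2 fold change -0.44, SE 0.13, adjusted p 0.0518) and 17.4, 16.2 and 17.6 CPM in low-yield mutant libraries (log2 fold change -0.72, SE 0.13, adjusted p 0.0019). No mutant library reached the range of its wildtype libraries, and the low-yield libraries lay below the mutant ones, a difference that was not called (log2 fold change -0.28, SE 0.13, adjusted p 1). Over both groups it fell by 0.38 (adjusted p 0.00498). Cdkn2d (p19), the other INK4 gene with counts to test, ran from 4.70 to 11.0 CPM over all libraries and was called in no comparison (log2 fold change 0.28, -0.34 and -0.28). Cdkn1b (p27), the inhibitor of cyclin E and Cdk2, stood at 24.7, 28.5 and 44.5 CPM in wildtype and 22.6, 31.0 and 29.1 CPM in mutant libraries of group 1 and was not called in any comparison either (log2 fold change -0.24, 0.11 and -0.14). Cdkn2a had at most 4 counts in a library, so no difference was detectable at this depth. The p21 gene Cdkn1a, which is no member, rose in each of the 3 comparisons with wildtype, by 3.80 (adjusted p 2.51e-06), 3.82 (0.000189) and 3.07 (0.000269) on the log2 scale. Cdkn1a stood at 1.84, 1.60 and 3.05 CPM in wildtype and 26.6, 34.1 and 30.8 CPM in mutant libraries of group 1, and at 2.72, 3.44 and 2.05 CPM in wildtype, 26.9, 36.2 and 50.8 CPM in mutant and 29.6, 18.4 and 20.2 CPM in low-yield mutant libraries of group 2.

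Between the low-yield and the other mutant of group 2 no member was called. Of the 51 members 0 were called, as were 0 of all 15024 genes tested (0%), with 3 members and 480 genes at an unadjusted p under 0.05. DESeq2 called 0 members and 6 genes. The members' log2 differences, low-yield minus mutant, ran from -0.39 (Cdc25b) to 0.24 (Ccnd1), with a median of -0.01. The libraries of the 2 kinds of mutant did not overlap in 6 of the 51 members (11.8%), against 8.21% of all genes tested, a share near that of genes overall. These 6 were Cdc25b, Cdkn2c, Rbl2, Cdc25c (0.22, higher in low-yield), Rb1 (-0.28) and E2f5 (-0.27, SE 0.12).

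Other genes of the cell cycle, 85 in 3 lists that hold no member, were described by the same counts. Of 35 further replication genes, 8 were called in group 1 (22.9%, 7 lower), 2 in the group 2 mutant (5.71%, both lower) and 11 over both groups (31.4%, 10 lower). Of all genes 12.6%, 6.27% and 19.6% were called in either direction, so the share in the group 2 mutant was near that of all genes. The low-yield mutant had 6 called (17.1%), all lower, against 5.86% of all genes called lower. Uhrf1, which recruits the maintenance DNA methyltransferase, fell by 0.46, 0.31 and 0.33 on the log2 scale (adjusted p 0.000826, 0.0206 and 0.00788). Fen1, the flap endonuclease of Okazaki fragment processing, fell by 0.31, 0.39 and 0.47 (adjusted p 0.00666, 0.0151 and 0.00232). Rpa2, a subunit of the single-strand binding protein, fell over both groups by 0.30 (adjusted p 0.0011) and Chaf1a, a histone chaperone subunit, by 0.19 (adjusted p 0.00608), while Pola1, the catalytic subunit of polymerase alpha, rose by 0.24 (adjusted p 0.00895). Of 30 further mitosis genes 3 were called in group 1 (2 higher, 1 lower; 10%, against 12.6% of all genes), 0 in either comparison with group 2 wildtype, and 5 over both groups (2 higher, 3 lower; 16.7%, against 19.6%). These shares were near or below those of all genes. In group 2, 5 (16.7%) and 4 (13.3%) of these 30 had an unadjusted p under 0.05, below the 20.4% and 26.5% of all genes. The 5 called over both groups were Anln (-0.30, adjusted p 0.00212), Nuf2 (-0.26, 0.00902), Ube2c (0.27, 0.0126), Ndc80 (0.23, 0.0236) and Nusap1 (-0.22, 0.0295). Of 20 further regulators 4 (20%) were called in each of the 3 comparisons with wildtype, 2 higher (all genes: 5.79%, 3.32% and 6.68%) and 2 lower (6.78%, 2.95% and 5.86%). The higher ones were Cdkn1a, described above, and Cks1b, a small CDK subunit (log2 fold change 0.24, 0.28 and 0.26). The lower ones were Pkmyt1, an inhibitory kinase of Cdk1 (-0.56, -0.42 and -0.37), and Mybl2, which with the MuvB core activates G2/M genes (-0.45, -0.33 and -0.31).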

How the data were processed

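Reads had been processed by the authors, and what they deposited are expected counts per gene, estimated numbers of reads that are not normalised and were already whole numbers. The submitters' processing notes name STAR 2.7.8a, RSEM 1.3.3, cutadapt 2.3 and the build GRCm38, without order or role. Which annotation and strand setting they used is not given in the sources used here. Per the labels' protocols, total RNA was taken up with the RNeasy Micro kit and sequenced on a NovaSeq in 151 bp paired reads. Of the gene IDs, 55141 (99.4%) are in GENCODE M21, used here for names, coordinates and exon lengths.

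The test was that of edgeR 4.0.16, run in R 4.3.3 (TMM, filterByExpr, robust quasi-likelihood fit, two-sided F test, Benjamini-Hochberg adjustment over all genes tested, threshold 0.05), after a check on simulated counts. Group 1 was fitted on its 6 libraries, group 2 on its 9, and both groups of mice on 12 with the group as a block. CPM are counts scaled by TMM library sizes, and RPKM divides them by the joined length of all annotated exons. Orders, ratios and shares between genes depend on that choice of length. SE is the log2 fold change over the square root of F. Near-identical copies were sought by aligning member transcripts to all transcripts. Intervals were not computed, and low counts carry counting error besides the spread between libraries.

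Values per library are given for members called in any comparison, in group 1 of mice, group 2 or both, and for some close relatives. Values of comparisons without a call are left out for some of them. Of the other lists, fold changes are given for the 4 called genes with the smallest p in the fit of both groups, and for Cdkn1a. Pola1 and Nusap1, outside this rule, were named after their values were seen. The members, lists and tests were chosen with earlier results of these data known. In group 1 the deviations of same-numbered wildtype and mutant libraries from their group means correlated across 9345 genes at 0.66, 0.27 and 0.39, so the numbers were taken to pair these libraries (wildtype replicate 3 correlated more with mutant replicate 2, at 0.47). Alternatives were RLE normalisation, no filter, DESeq2 1.42.0, the replicate number as a block, the compared libraries only and each library left out in turn. The legacy mode of the quasi-likelihood fit was added after seeing the data.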

Additional observations from a re-analysis of the deposited data

How the results depend on the processing

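No call of a member changed its direction under any alternative run (RLE normalisation, no low-count filter, DESeq2, the replicate block, the compared libraries only, the legacy quasi-likelihood mode, and each library left out in turn). Of the results for called members, 185 of 220 in group 1, 136 of 165 in the group 2 mutant, 195 of 225 in the low-yield mutant and 351 of 374 over both groups of mice also kept their call. Leaving out each library in turn gave 12 to 19 members in group 1, 6 to 11 in the group 2 mutant, 8 to 18 in the low-yield mutant and 19 to 24 over both groups. Over all genes it gave 753 to 1729, 425 to 1323, 900 to 2395 and 2526 to 3629, 0 to 22 between the low-yield and other mutant, and 2 to 3 for the interaction. The replicate block raised the count of all genes in group 1 from 1766 to 2863 and that of the interaction from 3 to 5. In group 2 same-numbered libraries were not shown to be paired (correlations across 9378 genes from -0.25 to 0.38), and there the block gave 12 members in the mutant (adding Cdkn2c), with 8.71% of all genes called, and 18 in the low-yield mutant (adding Ccna2, Cdk6 and Rb1), with 15.5% of all genes. Over both groups it gave 24 (adding Ccne2 and E2f4), with 24.4% of all genes. DESeq2 called 6 genes between the low-yield and other mutant and 12 for the interaction, none of them members. The cause of these shifts was not tested. With RLE size factors all member levels stayed within 1 SD. With 3 libraries a group, calls rest on few residual degrees of freedom. Cdkn2a and Ccnd1 had the lowest counts, and how far depth limits the other members was not tested.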
